A study of Mus musculus with 16 samples.

Results

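The liver response to CDDO-Me was compared between wild-type (WT) and Nrf2-/- (KO) mice by subtracting the KO response from the WT response, gene by gene. All 16 libraries of the series entered this interaction, 4 in each of 4 groups. The WT response is WT CDDO-Me against WT DMSO, and the KO response is KO CDDO-Me against KO untreated. A positive difference means a larger rise, or a smaller fall, in WT than in KO.

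The tissue was snap-frozen whole liver of C57BL/6 mice, labelled day 0 of partial hepatectomy, the removal of most of the liver. Per the labels, CDDO-Me was dissolved in DMSO and injected into the abdomen at 3 mg/kg, 24 h and 1 h before the operation, in both genotypes. The WT controls received DMSO alone at 1 µL/g, and the KO controls are labelled untreated. The series' design text instead places the resection 24 h after treatment, and it gives 4 animals per group, so replicates are taken as separate mice. Which part of the gene is deleted, and the sex and age of the mice, are not given in the labels.

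In unstressed cells the adaptor protein KEAP1 marks NRF2, the transcription factor that Nfe2l2 encodes, for degradation. The triterpenoid CDDO-Me, also called bardoxolone methyl, reacts with KEAP1 and lets NRF2 accumulate, pair with small MAF proteins and bind antioxidant response elements. In liver NRF2 is known for switching on enzymes that reduce quinones, make and use glutathione, supply NADPH and export conjugated toxins.

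Nfe2l2 (ENSMUSG00000015839, chromosome 2, 75675513 to 75704641, GRCm38) served as a check of the genotype labels. Levels are given as CPM, the gene's counts per megaread of the scaled library. Nfe2l2 was at 42.8, 66.2, 55.1 and 74.9 CPM in WT DMSO 1 to 4 and at 39.5, 36.6, 45.5 and 38 CPM in WT CDDO-Me 1 to 4. The KO libraries read 51.7, 35.5, 19.9 and 21.3 CPM untreated (1 to 4) and 19.8, 15.7, 21 and 19 CPM with CDDO-Me (1 to 4). All 4 KO CDDO-Me libraries were below every WT library, as were KO untreated 2 to 4, while the library labelled KO untreated 1 lay inside the WT range. Reads outside the deleted part would not check the label. This library also had the highest share of reads in sense-intronic and unsettled loci, 0.967%. For Nqo1, Gstm1 and Gsta1, given below, it lay below every WT library, as the other KO libraries did. The test that called those genes included this library. Without that library the interaction called 47 genes with a positive and 1 with a negative difference, and these included all 21 genes described below.

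Gene counts summed to 12002317 to 99284626 per library, the highest being WT CDDO-Me 1. Reads in sense-intronic and unsettled loci made up 0.673% to 0.967% of counts in 4 control libraries, WT DMSO 1 and 2 and the libraries labelled KO untreated 1 and 2, against 0.186% to 0.407% in the other 12. They are called intron-rich here. Ribosomal RNA made up 0.00108% to 0.0368% of each KO library, 0.00595% of WT DMSO 4 and 0.0105% of WT CDDO-Me 1. The remaining WT libraries had more, 0.173% to 0.634%. This share thus split the libraries by genotype, except that WT DMSO 4 and WT CDDO-Me 1 fell on the KO side. Its part in the differences between the responses was not tested. Results with both of these WT libraries left out are given below. WT DMSO 4 stood apart in interferon-induced genes: Ifit1, an antiviral protein, was at 3.41, 2.78, 5.95 and 405 CPM in WT DMSO 1 to 4 and no higher than 14.1 CPM in any library of the other groups. The KO controls were not injected, as far as their label says, so genotype and vehicle cannot be told apart in any difference between the responses.

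The WT response exceeded the KO response in 21 of 16206 genes tested (0.13%), and no gene was called in the opposite direction (0%). Calls are edgeR quasi-likelihood tests with a p under 0.05 after Benjamini-Hochberg adjustment over all genes tested. At an unadjusted p under 0.05 the test counted 804 positive (4.96%) and 579 negative (3.57%) genes. DESeq2, another count test, called 115 positive genes (0.71%), among them all 21, and 63 negative genes (0.389%). Leaving out WT DMSO 4 raised the edgeR total to 32 and leaving out the library labelled KO untreated 1 raised it to 48, while the other 14 such fits called 18 to 30.

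The called genes were enzymes of glutathione conjugation, carbonyl and quinone reduction and heme breakdown, an export pump and a handful of genes with other roles. Of the 21, 20 are protein-coding and 19 were also called upward in the WT response alone, which called 90 genes upward (0.555% of those tested). In 20 of the 21, every WT CDDO-Me library lay above every WT DMSO library, a pattern seen in 4.36% of all genes tested. In KO the groups overlapped for 17 of the 21, as they did for most genes tested. The drug group lay wholly below the untreated group for 4 (Akr1b8, Gsta2, Gm24830 and Mest), as it did for 4.5% of all genes. It lay wholly above for 0 of the 21, against 5.98% of all genes. The KO log2 change was negative in 16, and only the small nuclear RNA Gm24830 was called in KO, downward. These WT and KO counts share libraries with the interaction that chose the genes and describe its shape only. Their log2 differences ran from 1.41 to 7.0 with a median of 2.86.

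**Figure D1:**
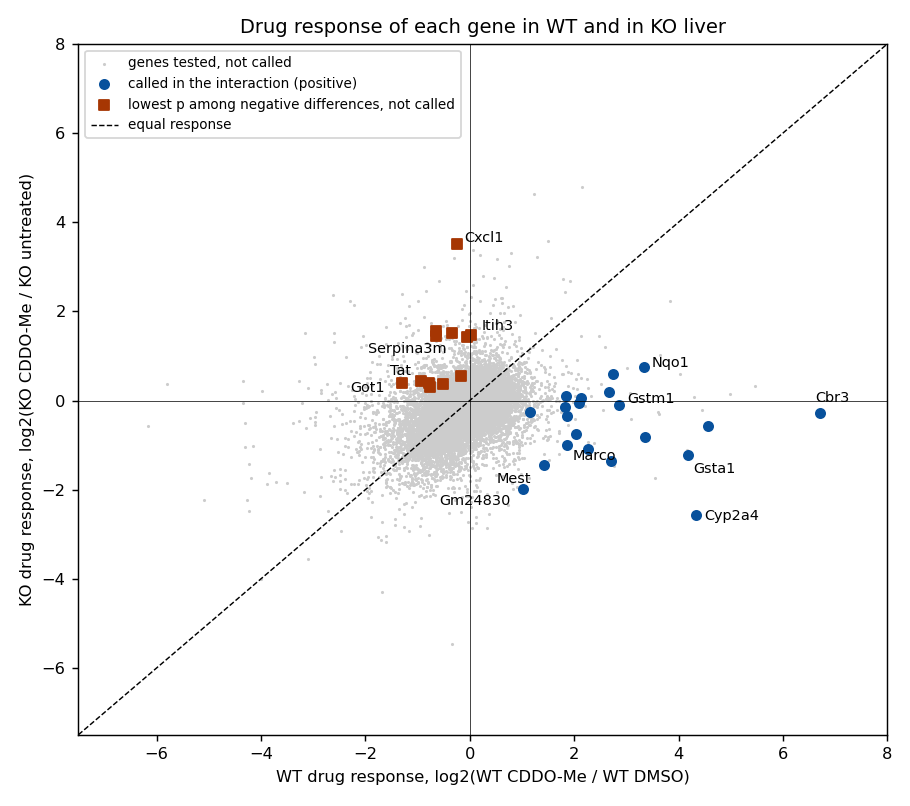
Each point is 1 of the genes tested, with its log2 drug response in WT liver on the horizontal axis and in KO liver on the vertical axis. Blue circles are the 21 called genes, which lie right of the dashed line of equal response with KO changes between -2.57 and 0.75. Orange squares are the 12 protein-coding genes with the lowest p among negative differences and a mean of at least 1 CPM in some group. None of these 12 was called.

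The drug-free starting points also differed for many of these genes. In 10 of the 21 every KO untreated library lay below every WT DMSO library, against 3.04% of all genes tested. The control groups overlapped in another 10, as in most genes tested. For Mest the KO controls were all higher, as in 2.87% of all genes. In 13 of the 21, even the highest KO CDDO-Me library was below the lowest WT DMSO library. The share of all genes with that pattern was not counted, and these libraries also entered the interaction that chose the genes.

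Carbonyl and quinone reductases included the gene with the largest log2 difference of the 21. Cbr3 (ENSMUSG00000022947, chromosome 16, 93683215 to 93690990, GRCm38), a carbonyl reductase that uses NADPH, was at 0.341, 0.278, 0.134 and 0.184 CPM in WT DMSO 1 to 4 and 28.3, 33.9, 20.8 and 15.5 CPM in WT CDDO-Me 1 to 4. In KO it was at 0.0508, 0.29, 0.519 and 0.639 CPM in untreated 1 to 4 and 0.283, 0.383, 0.255 and 0.344 CPM in CDDO-Me 1 to 4. Every WT CDDO-Me library was far above all 12 others, which overlapped. The WT response was 6.72 ± 0.46 (log2 change ± SE), the KO response -0.28 ± 0.47, and their difference 7.0 ± 0.67 (adjusted p = 0.0002). The 4 WT DMSO libraries held only 2 to 5 reads each, so the size of the fold rests on few reads.

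Its family member Cbr1 was at 39, 32, 52.6 and 33.4 CPM in WT DMSO 1 to 4 and 301, 248, 226 and 219 CPM in WT CDDO-Me 1 to 4. The KO libraries read 22.4, 24.8, 35 and 52.8 CPM untreated and 38.3, 47.5, 37 and 30.3 CPM with the drug, overlapping each other and the WT DMSO group. The difference of the responses was 2.48 ± 0.35 on the log2 scale (adjusted p = 0.0042). Akr1b8, an aldo-keto reductase, was at 1.57, 1.39, 1.61 and 1.52 CPM in WT DMSO and 6.38, 6.33, 6.8 and 5.32 CPM in WT CDDO-Me. Its KO levels were 1.52, 1.5, 1.27 and 1.75 CPM untreated and 0.728, 0.67, 0.988 and 1.17 CPM with CDDO-Me. The control groups overlapped, and with the drug the WT libraries were all higher and the KO libraries all lower than their controls. The difference was 2.78 ± 0.31 (adjusted p = 0.00052), and the KO change of -0.75 ± 0.22 by itself was not called (adjusted p = 0.19).

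Nqo1 (ENSMUSG00000003849, chromosome 8, 107388225 to 107403206, GRCm38), the quinone reductase most often used as a readout of NRF2, was at 3.21, 3.75, 4.22 and 4.04 CPM in WT DMSO 1 to 4 and 45.9, 40.2, 36.4 and 30.7 CPM in WT CDDO-Me 1 to 4. In KO it was at 0.508, 0.434, 0.897 and 1.19 CPM untreated and 1.98, 0.766, 1.56 and 0.825 CPM with the drug. The KO groups overlapped and stayed below the lowest WT DMSO library. The WT response of 3.33 ± 0.30 exceeded the KO response of 0.75 ± 0.33 by 2.58 ± 0.44 (adjusted p = 0.018). The call was lost in 4 of the 16 fits that each left out 1 library (KO untreated 3 or 4, WT CDDO-Me 1 or 2), with an adjusted p of up to 0.066.

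Glutathione genes made up 7 of the 21, counting 2 predicted genes related to Gsta1. Gclc (ENSMUSG00000032350, chromosome 9, 77754535 to 77794485, GRCm38) encodes the catalytic subunit of the rate-limiting enzyme of glutathione synthesis. Its levels were 288, 218, 271 and 277 CPM in WT DMSO 1 to 4 and 1118, 1355, 1229.9 and 925 CPM in WT CDDO-Me 1 to 4. The KO levels were 209.7, 146, 223 and 192 CPM untreated and 153, 194, 259 and 199 CPM with the drug. WT CDDO-Me stood above all other libraries, and the KO groups overlapped. The difference was 2.07 ± 0.28 (adjusted p = 0.0024), made up of a WT change of 2.13 ± 0.20 and a KO change of 0.07 ± 0.19.

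Among the glutathione transferases, which attach glutathione to electrophiles, the mu class gene Gstm1 (ENSMUSG00000058135, chromosome 3, 108012255 to 108017973, GRCm38) was at 675, 508, 879 and 598 CPM in WT DMSO 1 to 4. With CDDO-Me it was at 4879, 4194, 5539 and 4757 CPM in WT and 109.5, 114, 120.5 and 117 CPM in KO, whose untreated libraries read 88.4, 75.1, 125 and 204 CPM. The 4 KO drug libraries lay within the spread of the KO controls, and both KO groups were below every WT library. The difference was 2.96 ± 0.39 (adjusted p = 0.0024). Gstm3 was at 29.6 to 57.4 CPM in WT DMSO libraries and 324 to 468 CPM in WT CDDO-Me, against 5.99, 4.68, 5.57 and 18.5 CPM in KO untreated 1 to 4 and 3.85 to 6.75 CPM in KO CDDO-Me. Its difference was 4.16 ± 0.53 (adjusted p = 0.0024).

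Alpha class transferases showed the same pattern. Gsta1 (ENSMUSG00000074183, chromosome 9, 78230656 to 78242684, GRCm38) was at 3.0, 4.37, 4.28 and 3.08 CPM in WT DMSO 1 to 4 and 75.1, 49.3, 96.8 and 44.7 CPM in WT CDDO-Me 1 to 4. In KO it was at 0.203, 0.386, 0.802 and 1.41 CPM untreated and 0.324, 0.287, 0.223 and 0.378 CPM with the drug, from 4 to 33 reads per library. No KO library reached the lowest WT DMSO library, and the KO groups overlapped. The difference was 5.40 ± 0.60 (adjusted p = 0.00052).

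Gsta2 read 9.21, 9.02, 16.3 and 9.05 CPM in WT DMSO 1 to 4 and 78.2, 36.8, 53.4 and 41.7 CPM in WT CDDO-Me 1 to 4. Its KO levels were 2.13, 2.41, 1.7 and 3.66 CPM untreated and 1.21, 1.24, 0.669 and 1.55 CPM with the drug. WT libraries were all higher and KO libraries all lower with CDDO-Me, although the KO change of -1.09 ± 0.33 was not called, and the difference was 3.37 ± 0.44 (adjusted p = 0.0024). The predicted genes, Gm3776 and Gm10639, lie on the same chromosome 9 as Gsta1 and Gsta2, with differences of 5.14 ± 0.85 and 4.06 ± 0.58 (adjusted p = 0.016 and 0.005). Gm3776 held 0 to 14 reads in each KO library and lost its call without KO untreated 3 or 4 (adjusted p up to 0.19). How the counting split reads between near-identical alpha class or mu class copies is not given in the sources used here, so the values of single members are uncertain.

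Srxn1, sulfiredoxin, repairs overoxidised peroxiredoxins. It was at 26.6, 23, 26.4 and 39.5 CPM in WT DMSO 1 to 4 and 197, 266, 177 and 133 CPM in WT CDDO-Me 1 to 4, and at 10.9, 15.1, 21.3 and 23.6 CPM in KO untreated and 27, 32.7, 24.8 and 22.5 CPM in KO CDDO-Me. The WT drug group was separate from all others, and the KO groups touched, with KO CDDO-Me 4 between the 2 highest KO controls. The difference was 2.15 ± 0.36 (adjusted p = 0.016), and the call was lost without KO CDDO-Me 3 or KO untreated 3 (adjusted p up to 0.055).

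Blvrb, biliverdin reductase B, acts in heme breakdown and as a flavin reductase. Its levels were 48.2, 36.1, 69 and 57.4 CPM in WT DMSO 1 to 4 and 179.7, 206, 208 and 165 CPM in WT CDDO-Me 1 to 4. The KO levels were 23, 22.9, 35 and 33.4 CPM untreated and 24.7, 31.4, 31.6 and 34.2 CPM with the drug. All KO libraries lay below all WT libraries, and the KO groups overlapped. The difference was 1.76 ± 0.28 (adjusted p = 0.014).

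Abcc4, a pump that exports conjugated organic anions across the basolateral membrane of hepatocytes, was at 8.19, 7.63, 5.75 and 7.21 CPM in WT DMSO 1 to 4 and 50.9, 21.1, 26.8 and 23.3 CPM in WT CDDO-Me 1 to 4. In KO it was at 4.11, 4.54, 3.35 and 5.11 CPM untreated and 3.6, 3.97, 3.92 and 5.02 CPM with the drug. WT CDDO-Me 1 was the highest library and the other 3 of its group were still above every control. The difference was 2.14 ± 0.35 (adjusted p = 0.016). Without the 4 intron-rich libraries its adjusted p was 0.068, and of the 21 calls 18 remained, the others lost being Tbcel and Gm24830.

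Cyp2a4, a cytochrome P450, was at 0.887, 2.36, 3.55 and 0.735 CPM in WT DMSO 1 to 4 and 50.2, 26.9, 30.6 and 41.9 CPM in WT CDDO-Me 1 to 4. Its KO levels were 0.152, 0.386, 0.661 and 2.81 CPM untreated and 0.121, 0.0957, 0.0956 and 0.344 CPM with the drug, 2 to 10 reads per library in the latter. The WT groups were far apart and the KO groups overlapped. The difference was 6.91 ± 1.00 (adjusted p = 0.0051). Its near-identical copy Cyp2a5 had a difference of 3.87 ± 0.77 that was not called (adjusted p = 0.063), from 141 to 430.4 CPM in WT DMSO, 2652 to 3679.8 CPM in WT CDDO-Me, 24.4 to 67.2 CPM in KO untreated libraries and 9.23 to 74.4 CPM in KO CDDO-Me. How reads were divided between the copies is not known.

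**Figure D2:**
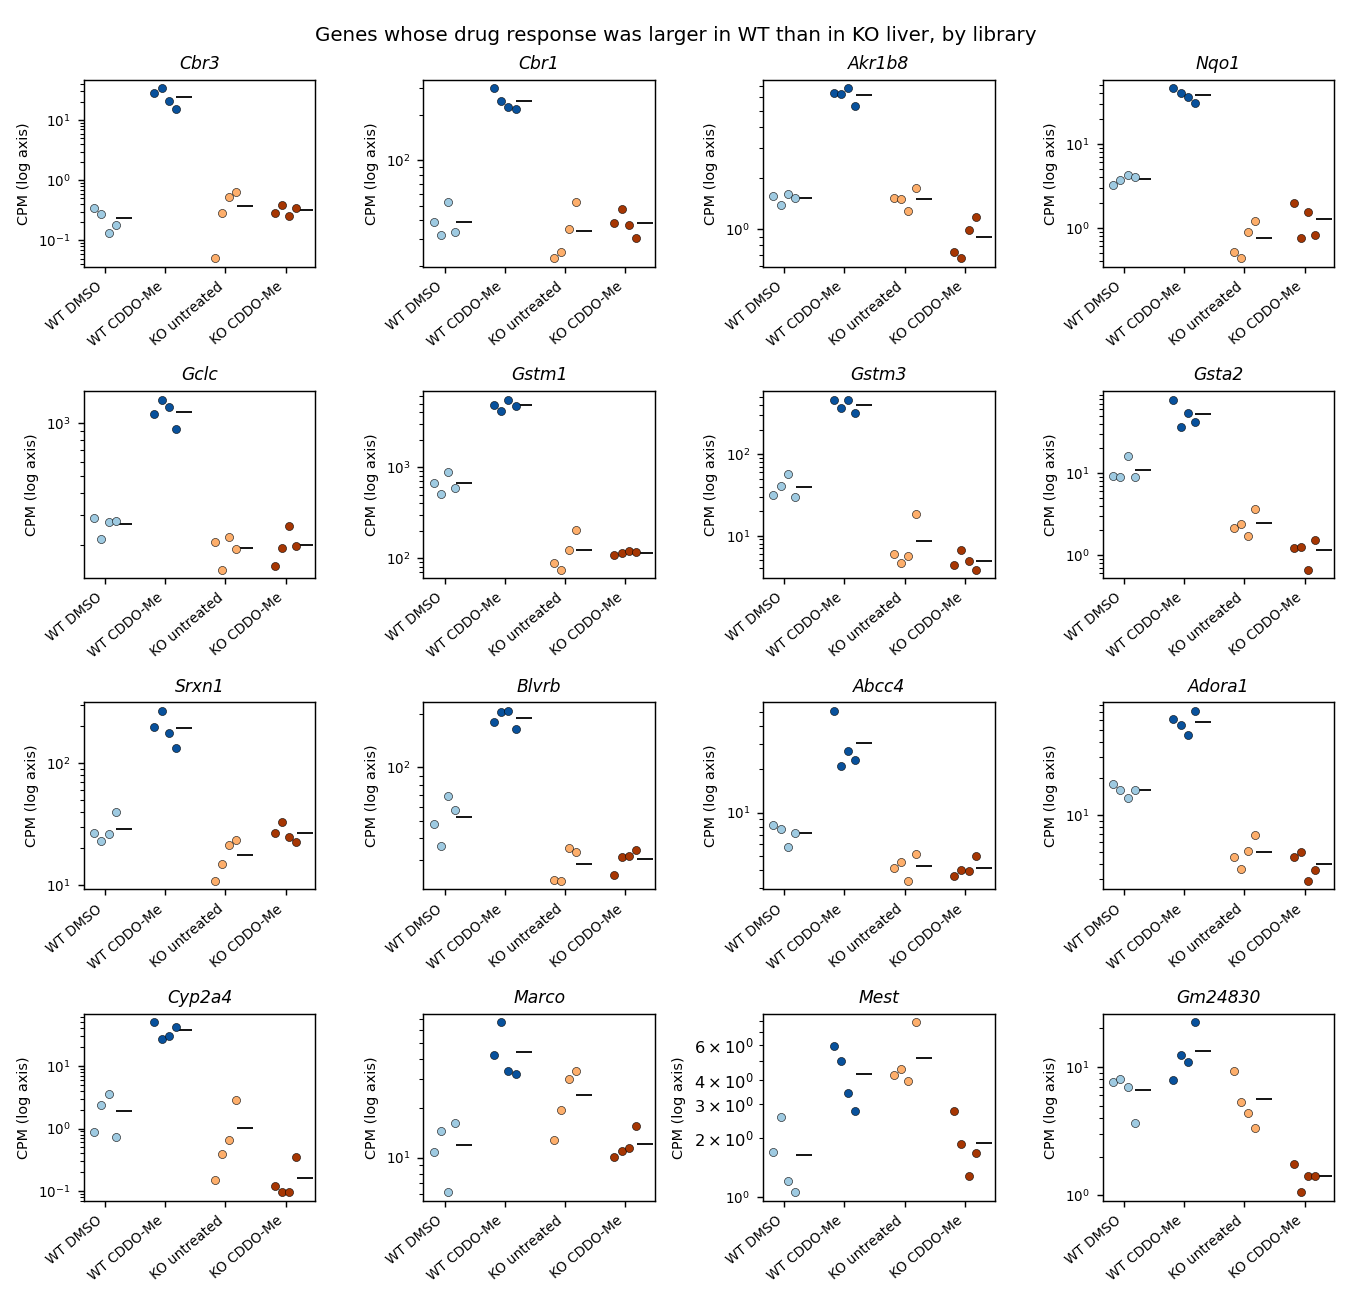
CPM on a log axis for 16 of the 21 called genes in every library (points, replicates 1 to 4 from left to right) with the arithmetic group mean as a bar. The WT CDDO-Me points stand above WT DMSO in every panel except Gm24830, and the KO CDDO-Me points overlap or lie below the KO untreated points.

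A few of the 21 are not enzymes of detoxification. Adora1, the adenosine A1 receptor, was at 17.9, 16.1, 13.9 and 16.1 CPM in WT DMSO 1 to 4 and 61, 54.8, 45.4 and 71.1 CPM in WT CDDO-Me 1 to 4, against 4.57, 3.62, 5.1 and 6.86 CPM in KO untreated and 4.53, 5.03, 2.9 and 3.54 CPM in KO CDDO-Me. Its KO groups overlapped far below the WT controls, and the difference was 2.20 ± 0.29 (adjusted p = 0.0024). Tbcel, a tubulin-folding cofactor relative, had the smallest difference of the 21, 1.41 ± 0.23 (adjusted p = 0.016). It was at 42.2 to 62.8 CPM in WT DMSO, 88.8 to 150.2 CPM in WT CDDO-Me, 46.9 to 52.8 CPM in KO untreated libraries and 35.8 to 48.6 CPM in KO CDDO-Me, and without KO CDDO-Me 2 its adjusted p was 0.056. D630045J12Rik, a gene with only a clone name, differed by 1.96 ± 0.31 (adjusted p = 0.014).

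Marco, a scavenger receptor of macrophages, was at 10.8, 14.6, 6.16 and 16.2 CPM in WT DMSO 1 to 4 and 42, 66.6, 33.7 and 32.1 CPM in WT CDDO-Me 1 to 4. The KO levels of this gene were 12.8, 19.5, 29.9 and 33.6 CPM untreated and 10.1, 11, 11.5 and 15.6 CPM with the drug. The WT groups were separate, and the KO groups overlapped with the drug libraries at the lower end. The difference was 2.86 ± 0.47 (adjusted p = 0.016).

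Other Kupffer cell and macrophage genes were read beside it. The summed level of the 16 listed markers ran from 491 to 625 CPM in WT DMSO, 862 to 1154 CPM in WT CDDO-Me, 488 to 928 CPM in KO untreated libraries and 850.4 to 1032 CPM in KO CDDO-Me, with no marker at 0 in any group. The ranges of both drug groups overlapped, and Marco was the only 1 of the 16 called in the interaction. Of these markers 13 had a positive difference, with a median of 0.46. In whole tissue, fewer cells of a type and less RNA per cell cannot be told apart.

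For Mest and Gm24830 the KO side carried much of the difference. Mest, an imprinted gene of the hydrolase family, was at 1.71, 2.57, 1.2 and 1.06 CPM in WT DMSO 1 to 4 and 5.98, 4.99, 3.4 and 2.75 CPM in WT CDDO-Me 1 to 4. KO libraries were at 4.22, 4.54, 3.92 and 7.88 CPM untreated and 2.75, 1.87, 1.27 and 1.68 CPM with the drug. The drug libraries were all higher in WT and all lower in KO, and the KO controls were above the WT controls. The difference was 2.86 ± 0.49 (adjusted p = 0.019), with neither the WT change of 1.42 ± 0.35 nor the KO change of -1.44 ± 0.34 called. The call was lost without KO CDDO-Me 2, 3 or 4 or WT CDDO-Me 1 or 2 (adjusted p up to 0.062).

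The small nuclear RNA Gm24830 was at 7.57, 8.12, 6.96 and 3.67 CPM in WT DMSO and 7.94, 12.4, 11 and 22.3 CPM in WT CDDO-Me, which overlapped, and at 9.29, 5.31, 4.39 and 3.32 CPM in KO untreated and 1.74, 1.05, 1.4 and 1.41 CPM in KO CDDO-Me, which did not. Its KO change was -1.98 ± 0.37 (adjusted p = 0.047) and the difference 3.00 ± 0.51 (adjusted p = 0.018), the latter lost without KO CDDO-Me 2 or 3 (adjusted p up to 0.06). The KO call was kept in 5 of the 16 fits without 1 library, those without WT CDDO-Me 1 or 4, WT DMSO 2 or 4 or KO untreated 4. Mest overlaps Copg2 on the opposite strand, and the strand setting of the counting is not given in the sources used here. Those from Cbr3 to Abcc4 in order of p, 15 of the 21, were called in all 16 fits that left out 1 library.

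Because these genes moved together, their promoters were searched for the core of the antioxidant response element, TGACNNNGC, on either strand, in RefSeq windows from 250 bases before to 50 bases after each start (GRCm38.p6). The core was present for 3 of the 19 called genes in the table (15.8%), Abcc4, Tbcel and Srxn1, beside 16.8% of the 10605 tested genes matched and 13.99% of all 27025 genes in the table. Among the genes called upward in WT but not in the interaction it was present for 15 of 48 (31.3%). A window without these letters says nothing about more distant elements. Some genes have several annotated starts, and Abcc4 and Tbcel hold more than 1 match over theirs. The windows printed here show a match in 2 of the called genes and the single match among the 12 protein-coding genes with the lowest p in the opposite direction. Each is printed on the gene's own strand with the match in capitals, 25 bases on either side.
Tbcel, chr9:42461472-42461530, minus strand: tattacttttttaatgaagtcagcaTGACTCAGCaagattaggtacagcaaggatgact
Abcc4, chr14:118676921-118676979, minus strand: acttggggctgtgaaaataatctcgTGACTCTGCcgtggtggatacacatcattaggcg
Itih3, chr14:30923583-30923641, minus strand: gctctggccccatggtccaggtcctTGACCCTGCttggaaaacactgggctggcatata

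Several textbook NRF2 targets were not called in the interaction. Txnrd1, thioredoxin reductase, was at 115, 113, 151 and 253 CPM in WT DMSO 1 to 4 and 355, 339, 411 and 307 CPM in WT CDDO-Me 1 to 4. Its KO levels were 70.4, 77.3, 101 and 86.2 CPM untreated and 126, 125, 122 and 148 CPM with the drug. The drug libraries were above their own controls in both genotypes, but only the WT change was called (1.16 ± 0.22 against 0.63 ± 0.22 in KO), and that call was lost without WT CDDO-Me 1, 2 or 3 or WT DMSO 1 or 2 (adjusted p up to 0.091). The difference was 0.53 ± 0.31, with a 95% interval of -0.14 to 1.19 (adjusted p = 0.74).

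Gclm, which encodes the regulatory partner of Gclc, was at 102, 87.7, 211 and 183 CPM in WT DMSO and 240.4, 335, 319 and 318 CPM in WT CDDO-Me, and at 84.1, 117, 179.8 and 156 CPM in KO untreated and 218, 228, 213 and 172 CPM in KO CDDO-Me. Its difference was 0.43 ± 0.38 (interval -0.39 to 1.24, adjusted p = 0.87). Neither response was called (adjusted p = 0.096 in WT and 0.29 in KO). Hmox1, heme oxygenase, was at 20.5, 34.1, 47.2 and 294 CPM in WT DMSO, 95, 104, 105 and 266 CPM in WT CDDO-Me, 9.8, 10.9, 17.4 and 17.9 CPM in KO untreated and 25.4, 28.5, 24.1 and 51.2 CPM in KO CDDO-Me. WT DMSO 4 was the highest of the 16, and without it the difference turned from -0.69 ± 0.90 (interval -2.58 to 1.21) to 0.86, uncalled in both fits.

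Several positive differences lay just outside the threshold. Fgf21, a fasting and stress hormone of the liver, was at 1.02, 1.11, 1.0 and 0.0918 CPM in WT DMSO 1 to 4 and 90.3, 7.89, 15.1 and 21.8 CPM in WT CDDO-Me 1 to 4. It was at 0.29 to 1.07 CPM in KO untreated libraries and 0.622 to 1.37 CPM in KO CDDO-Me. WT CDDO-Me libraries were all above the others and differed widely among themselves, and the difference was 5.13 ± 1.04 (adjusted p = 0.074). Psat1, an enzyme of serine synthesis, differed by 3.42 ± 0.82 (adjusted p = 0.13).

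Ugdh makes the sugar donor for glucuronidation. It was at 146 to 183 CPM in WT DMSO, 453 to 578 CPM in WT CDDO-Me, 48.9 to 76.6 CPM in KO untreated libraries and 88.6 to 108 CPM in KO CDDO-Me. The groups were separate in both genotypes, with a WT change of 1.62 ± 0.16 and an uncalled KO change of 0.53 ± 0.16, and the difference of 1.08 ± 0.22 had an adjusted p of 0.077. The heme transporter Slc48a1 had the same pattern, with 1.78 ± 0.19 in WT, 0.60 ± 0.18 in KO and a difference of 1.19 ± 0.26 (adjusted p = 0.084).

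Igf2bp3, an RNA-binding protein of fetal tissues, reached a positive difference of 5.11 ± 1.09 (adjusted p = 0.082) mainly from the KO side. It held 0 to 13 reads in every WT library. In KO untreated 1 to 4 it was at 2.18, 5.65, 4.39 and 5.5 CPM, and in KO CDDO-Me 1 to 4 at 0.162, 0.144, 0.0956 and 0 CPM, a called fall (-5.46 ± 0.63, adjusted p = 0.003). Without WT CDDO-Me 1, the only drug-treated WT library with any read, the difference was 1.48. Igf2bp3 overlaps Malsu1 on the opposite strand, which held 3874 reads in all against its 411.

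The responses were then read by gene list, beside all genes tested, of which 8269 of 16206 had a positive difference with a median of 0.01. Of 36 listed NRF2 targets, 34 had a positive difference and 12 were called, with a median log2 difference of 1.32. The list's median response was 1.56 in WT, where 25 members were called upward, and 0.08 in KO, where 0 were called and 23 were positive. Only Me1 (malic enzyme) and Hmox1 were below 0. Of 33 tested genes of glutathione synthesis and transfer, 29 were positive and 5 were called, with a median of 0.65. Of 29 quinone, carbonyl and aldehyde enzymes, 26 were positive and 4 were called, with a median of 0.60.

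Lists of other NRF2-linked processes held fewer called genes. The 15 genes of the pentose phosphate pathway and NADPH supply had 11 positive and 0 called, with a median of 0.28. Pgd, a dehydrogenase of the pathway, had the lowest p among them, with a difference of 1.15 ± 0.26 (adjusted p = 0.11). Of 24 glucuronidation and sulfation genes 14 were positive and 0 were called, with a median of 0.91. Ugt2b35, a glucuronosyltransferase, differed by 1.54 ± 0.36 (adjusted p = 0.12) while the sulfotransferase Sult1a1 had the opposite sign, -1.24 ± 0.30 (adjusted p = 0.14). The 18 genes of the thioredoxin system had a median of 0.12 with Srxn1 as the single call, and the 24 of heme and iron handling a median of 0.08 with Blvrb as the single call.

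The lists of fatty acid oxidation and xenobiotic P450 genes leaned positive, with few calls. Of 29 genes of fatty acid oxidation and PPAR alpha targets, 26 had a positive difference and 0 were called, with a median of 0.57 that combined 0.42 in WT and -0.20 in KO. The lowest p-values of the list belonged to Fgf21 and to Cyp4a31, a fatty acid hydroxylase whose KO libraries were all lower with the drug (6.61 to 24.1 CPM untreated and 1.58 to 5.12 CPM with CDDO-Me, difference 2.93 ± 0.70, adjusted p = 0.13). The 36 xenobiotic cytochrome P450 genes had 28 positive differences and a median of 0.57, with a median of 0.08 in WT and -0.50 in KO, and Cyp2a4 as the single call. Cyp1a2, a P450 of pericentral hepatocytes, was at 265 to 613 CPM in WT DMSO, 635 to 1124 CPM in WT CDDO-Me, 408 to 575 CPM in KO untreated libraries and 99.3 to 289 CPM in KO CDDO-Me. Its drug groups were separate from the controls in both genotypes, in opposite directions, and the difference of 2.30 ± 0.50 was not called (adjusted p = 0.087).

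Of the other metabolic lists, cholesterol synthesis had 16 of 22 positive, a median of 0.43 and 0 called. Bile acid and organic anion transport had 17 of 22 positive, a median of 0.40 and 1 called. The lists of fatty acid synthesis and of glucose metabolism had negative medians and no calls. Fatty acid and triglyceride synthesis had 7 of 24 positive and a median of -0.28, with -0.69 in WT, where 3 were called downward, and -0.47 in KO. Glucose metabolism had 7 of 21 positive and a median of -0.22.

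Proteasome subunits, a further set of reported NRF2 targets, had differences near 0. Of 34 subunits 33 had a positive WT change and 34 a positive KO change, with medians of 0.21 and 0.33, none called in either. Their differences had a median of -0.12, with 8 positive.

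**Figure D3:**
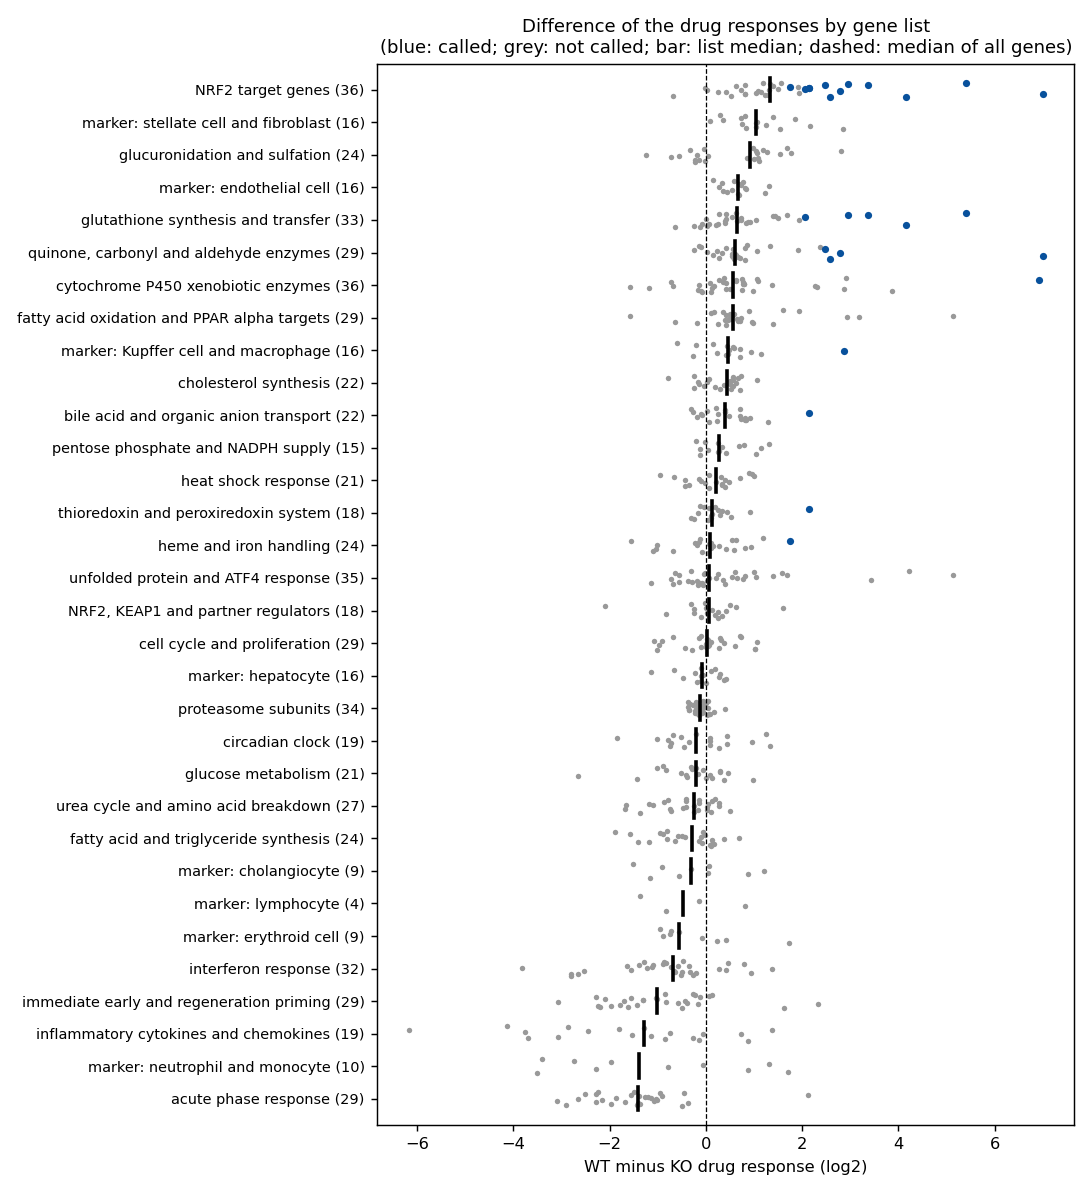
Log2 difference of the drug responses (WT minus KO) on the horizontal axis for each tested member of the gene lists, with the number tested in parentheses, blue for called genes and grey for the rest. NRF2 targets have the highest median (1.32), the acute phase list the lowest (-1.40), and the called genes sit at the right of the upper lists.

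Markers of stellate and endothelial cells leaned positive as well. Those of cholangiocytes, lymphocytes and erythroid cells had negative medians (-0.32, -0.48 and -0.56, over 9, 4 and 9 genes tested). The cholangiocyte median became 0.31 without WT DMSO 4. All 16 stellate cell and fibroblast markers had a positive difference, with a median of 1.04, and none were called. Without the 4 intron-rich libraries 4 were called. Their summed level ran from 351 to 568 CPM in WT DMSO, 647 to 782 CPM in WT CDDO-Me, 375 to 943 CPM in KO untreated libraries and 368 to 539 CPM in KO CDDO-Me, and none was at 0. The collagen gene Col1a1 spread widely among controls, at 33.4, 5.97, 6.62 and 31.1 CPM in WT DMSO 1 to 4 and 13.9, 20.8, 62.7 and 87.3 CPM in KO untreated 1 to 4. With the drug it was at 41.2, 32.4, 22.4 and 48.6 CPM in WT and 11.9, 16.1, 10.4 and 9.73 CPM in KO, and the difference was 2.85 ± 0.82 (adjusted p = 0.25).

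All 16 endothelial markers were also positive, with a median of 0.67 and none called. The scavenger receptor Stab1 of sinusoidal endothelium was at 85.7 to 127 CPM in WT DMSO, 128 to 151 CPM in WT CDDO-Me, 113 to 141 CPM in KO untreated libraries and 85.9 to 109.7 CPM in KO CDDO-Me. Its WT drug libraries were all higher and its KO drug libraries all lower than their controls, with a difference of 0.77 ± 0.20 (adjusted p = 0.18). Hepatocyte markers had 7 of 16 positive and a median of -0.08. Their summed level overlapped among all 4 groups, from 70871 to 158876 CPM. The part of cell composition in the interaction was not tested.

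The drug response of each genotype was then read in the other, whose log2 changes share no library with it. The tests of both responses use a spread estimated over all 16 libraries. WT called 118 genes (0.728%), 90 upward and 28 downward (0.173%), and KO called 21 (0.13%), 17 upward (0.105%) and 4 downward (0.0247%). In KO the 90 genes that rose in WT had a median change of 0.09 (their WT median was 1.49), against -0.04 for all genes tested. Of the 90, 52 (57.8%) had a positive KO change, against 45.5% of all genes, 11 were higher and 8 lower at an unadjusted p under 0.05 (6.24% and 9.58% of all genes), and 2 were called. The interaction called 19 of the 90 and left 71 uncalled. At an unadjusted interaction p under 0.05 there were 81 of the 90, in a test that shares the WT libraries with the choice of these genes. The WT count was 54 to 74 without any 1 of the WT CDDO-Me libraries or WT DMSO 1 or 2, and 210 and 219 without WT DMSO 3 or 4. The KO count was 4 to 13 without KO CDDO-Me 1, 2 or 3 or KO untreated 1, 2 or 3, and 133 without WT DMSO 4.

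The 2 genes called upward in both genotypes were Pla2g7 and Dnajc12. Pla2g7, a phospholipase that inactivates platelet-activating factor, was at 2.8, 2.5, 2.94 and 3.81 CPM in WT DMSO 1 to 4 and 11.2, 14, 13.9 and 13.9 CPM in WT CDDO-Me 1 to 4. Its KO libraries read 1.12, 1.79, 2.36 and 2.6 CPM untreated and 4.09, 5.7, 5.7 and 6.19 CPM with the drug. Both genotypes were separate from their controls, and the responses of 2.13 ± 0.24 and 1.46 ± 0.24 differed by 0.67 ± 0.33 (interval -0.02 to 1.36, adjusted p = 0.6). The KO call was lost without KO CDDO-Me 2, 3 or 4 or KO untreated 2.

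Dnajc12, a co-chaperone of the aromatic amino acid hydroxylases, was at 5.73, 8.46, 14.7 and 9.83 CPM in WT DMSO 1 to 4 and 29.998, 23.7, 47.3 and 46.4 CPM in WT CDDO-Me 1 to 4. Its KO levels were 3.61, 3.67, 6.65 and 6.05 CPM untreated and 47.6, 46, 19 and 16.2 CPM with the drug. No drug library overlapped its controls in either genotype. The responses were 1.93 ± 0.38 in WT and 2.68 ± 0.40 in KO, with a difference of -0.76 ± 0.53 (interval -1.88 to 0.37, adjusted p = 0.8). The WT call was lost without WT CDDO-Me 3 or 4 or WT DMSO 1 or 2, and the KO call without KO CDDO-Me 2 or KO untreated 2.

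Of the genes called in KO, 14 of the 17 that rose had a positive WT change, with a median of 0.53 there and 2.13 in KO. The interaction called 0 of the 17, and 15 had an unadjusted interaction p under 0.05 in a test that shares the KO libraries with their choice. The 28 genes that fell in WT had a median of -1.52 in WT and -0.40 in KO, with 23 negative in KO. None was called in KO and none in the interaction, while 20 of the 28 had an unadjusted interaction p under 0.05, a test that shares the WT libraries with the choice of these genes.

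No difference in the opposite direction passed the edgeR threshold. The 12 below are the protein-coding genes with the lowest p among negative differences and at least 1 CPM on average in some group. All 12 were called by DESeq2. Without the 4 intron-rich libraries edgeR called 16 negative genes (0.0976%), including Acpp, Cadps2 and Zfp445 of the 12, and 8 of the 16 (50%) were among the 63 of DESeq2 (12.7%). Zfp125, which is not among the 12, differed by -1.50 (edgeR adjusted p = 0.077) and was called negative in both of these fits. In 7 of the 12 (Cxcl1, Acpp, Serpina3m, Itih3, Kcnt2, Cadps2 and Map3k6) every KO drug library lay above every KO control while the WT groups overlapped. KO drug libraries were all higher in 5.98% of all genes tested. In the other 5 (Tomm40l, Piga, Tat, Zfp445 and Got1) every WT drug library lay below every WT control, as in 2.84% of all genes tested. These counts share libraries with the interaction that chose the 12 genes and describe its shape only.

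Cxcl1, a chemokine that draws neutrophils, had the lowest p of the first 7. It was at 168, 115, 42.9 and 275 CPM in WT DMSO 1 to 4 and 154, 141, 89.1 and 119.5 CPM in WT CDDO-Me 1 to 4. KO samples were at 12.3, 16.8, 7.6 and 11.8 CPM untreated and 44, 84.3, 146 and 279 CPM with the drug. The WT groups overlapped, and every KO untreated library was below every other library. The KO rise of 3.51 ± 0.56 was called (adjusted p = 0.016) and the difference of -3.77 ± 0.74 was not (adjusted p = 0.063). It ranged from -4.08 to -3.17 over the fits that left out 1 library, and the KO call was lost without KO untreated 1, 2 or 3 (adjusted p up to 0.067).

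Acpp, an acid phosphatase, was at 8.66, 12.9, 12.4 and 10.7 CPM in WT DMSO, 6.49, 7.0, 12 and 10.1 CPM in WT CDDO-Me, 3.96, 6.27, 3.02 and 3.07 CPM in KO untreated and 11.6, 9.48, 15.5 and 10.04 CPM in KO CDDO-Me. Again only the KO controls stood apart, below the rest, with a KO rise of 1.51 ± 0.26 (adjusted p = 0.028) and a difference of -1.85 ± 0.37 (adjusted p = 0.063). The protease inhibitor Serpina3m was at 747, 556, 605 and 946 CPM in WT DMSO, 629, 730.3, 547 and 834 CPM in WT CDDO-Me, 258, 176, 288 and 265 CPM in KO untreated and 539.7, 770.4, 617 and 726 CPM in KO CDDO-Me. Its KO rise of 1.43 ± 0.22 was called (adjusted p = 0.012) against a WT change of -0.06 ± 0.22, and the difference was -1.49 ± 0.31 (adjusted p = 0.077). The KO call of Acpp was lost without KO CDDO-Me 1, 2 or 3 or KO untreated 1, 3 or 4 (adjusted p up to 0.096), and that of Serpina3m without KO CDDO-Me 2 or KO untreated 2 (up to 0.06). Serpina3m overlaps Serpina3k on the same strand, which held 3837897 reads against its 231419, so its values are uncertain.

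Itih3, an inter-alpha-trypsin inhibitor heavy chain, was at 1985, 2388, 1394 and 2238 CPM in WT DMSO 1 to 4 and 2231, 2184, 1532 and 2231 CPM in WT CDDO-Me 1 to 4. The KO groups were at 1184, 1144, 1206 and 1406 CPM untreated and 3992, 4384, 2887 and 2449 CPM with the drug. Here the KO drug group was above all WT libraries, and the KO rise of 1.47 ± 0.24 was called (adjusted p = 0.021), the difference of -1.44 ± 0.34 not (adjusted p = 0.13). Prg4 (lubricin) and the stress factor Atf3 also rose in KO (2.30 ± 0.31 and 3.27 ± 0.58, adjusted p = 0.0072 and 0.03) with WT changes of 0.60 ± 0.30 and 0.20 ± 0.52, and differences of -1.70 ± 0.42 and -3.07 ± 0.77 (adjusted p = 0.15 and 0.15). Prg4 overlaps Tpr on the opposite strand. Without 1 library the KO call of Prg4 was kept in all 16 fits and that of Atf3 in 9, lost without any KO untreated library or KO CDDO-Me 2, 3 or 4 (adjusted p up to 0.16). The KO call of Itih3 was lost without KO CDDO-Me 1 or 2 or KO untreated 1, 2 or 3 (adjusted p up to 0.11).

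The acute phase list, plasma proteins that hepatocytes secrete in inflammation, had the lowest median of the lists. Of its 29 genes 28 had a negative difference, with a median of -1.40, and 15 reached an unadjusted p under 0.05 but none was called. The medians of the responses were 0.25 in WT, with 0 called, and 1.52 in KO, with 3 called upward. Summed, the list ran from 34214 to 115611 CPM in WT DMSO, 65631 to 95149 CPM in WT CDDO-Me, 24208 to 55032 CPM in KO untreated libraries and 75008 to 145795 CPM in KO CDDO-Me. The KO groups did not overlap and the WT groups did. Without WT DMSO 4 the median difference was -0.76, and without both WT DMSO 4 and WT CDDO-Me 1 it was -0.72.

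Other lists of inflammation rested on that library for their sign. Inflammatory cytokines and chemokines had a median of -1.29 over 19 genes that became 0.02 without WT DMSO 4. Interferon response genes had -0.69 over 32 genes and 0.57 without it, and neutrophil and monocyte markers -1.39 over 10 tested and 0.57 without it. The neutrophil markers summed to 37.3 to 1361 CPM in WT DMSO, 115 to 1130.2 CPM in WT CDDO-Me, 57.9 to 101 CPM in KO untreated libraries and 155 to 728 CPM in KO CDDO-Me, and 4 of the 18 were at 0 in all KO untreated libraries. Their part in the Cxcl1 and acute phase values was not tested. Immediate early and regeneration genes had a median of -1.01, with 4 of 29 positive, and -1.30 to -0.66 over the fits without 1 library, the latter without KO CDDO-Me 4.

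**Figure D4:**
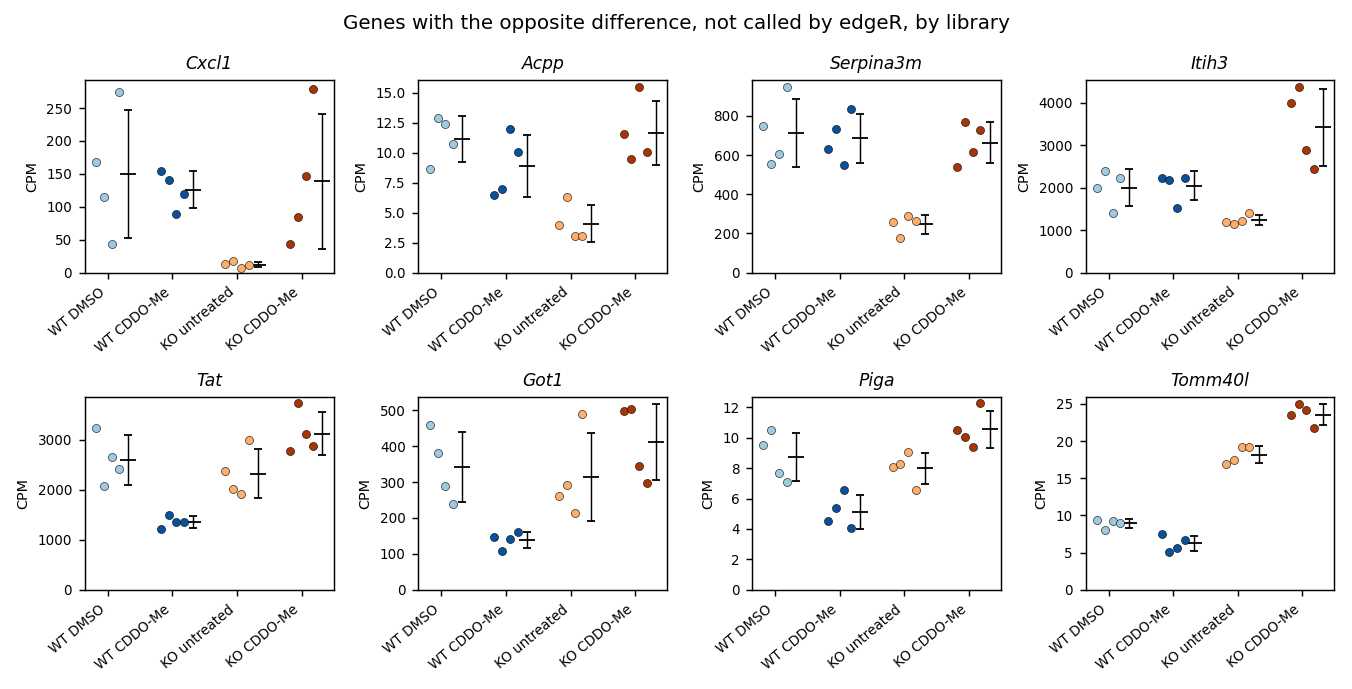
CPM on a linear axis from 0 for 8 genes with a negative difference, as points for each library with the group mean and SD. In the upper row the KO untreated group is the lowest, and in the lower row the WT CDDO-Me group is the lowest.

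Enzymes of amino acid breakdown were among the genes with lower levels in treated WT liver. Tat, the first enzyme of tyrosine breakdown, was at 3244, 2067, 2662 and 2421 CPM in WT DMSO 1 to 4 and 1217, 1498, 1365 and 1360.2 CPM in WT CDDO-Me 1 to 4. Its levels in KO were 2379.5, 2016, 1907 and 2990.0 CPM untreated and 2775, 3735, 3119 and 2875 CPM with the drug. The WT drug group was below all other libraries and the KO groups overlapped. The WT change was -0.93 ± 0.22 (adjusted p = 0.06) and the difference -1.36 ± 0.30 (adjusted p = 0.1), neither called.

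Got1, the cytosolic aspartate aminotransferase, fell in WT (-1.30 ± 0.27, adjusted p = 0.041), a call kept in 7 of the 16 fits without 1 library and lost without any WT CDDO-Me library, WT DMSO 1 or 2, KO CDDO-Me 2 or 3 or KO untreated 2 (adjusted p up to 0.18). It was at 460.3, 380.0, 290.1 and 239 CPM in WT DMSO 1 to 4 and 147, 108, 141 and 162 CPM in WT CDDO-Me 1 to 4, and at 261, 291, 213 and 490.0 CPM in KO untreated and 498, 504, 344 and 298 CPM in KO CDDO-Me. WT CDDO-Me was again the only separate group, and the difference of -1.68 ± 0.38 was not called (adjusted p = 0.11). The serine and lysine breakdown enzymes Sds and Aass also passed in WT (-1.61 ± 0.35 and -0.95 ± 0.21) with KO changes of 0.06 ± 0.34 and 0.24 ± 0.21, and differences of -1.67 ± 0.49 and -1.19 ± 0.30 (adjusted p = 0.26 and 0.15). Their WT calls were kept in only 6 and 2 of the 16 fits without 1 library. Sds lost its call without any WT CDDO-Me library, WT DMSO 1 or 2, KO CDDO-Me 1, 2 or 4 or KO untreated 2, and Aass kept its call only without WT DMSO 2 or the library labelled KO untreated 1.

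The whole list of 27 urea cycle and amino acid genes had a median difference of -0.26, with 9 positive and 0 called by edgeR, while DESeq2 called 5 of them negative. Its medians were -0.38 in WT and 0.05 in KO, and 3 members were called downward in WT.

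Tomm40l, a relative of the mitochondrial import pore, was at 9.41, 7.98, 9.3 and 9.0 CPM in WT DMSO 1 to 4 and 7.43, 5.13, 5.61 and 6.7 CPM in WT CDDO-Me 1 to 4, against 17, 17.4, 19.2 and 19.1 CPM in KO untreated and 23.5, 24.9, 24.1 and 21.7 CPM in KO CDDO-Me. All KO libraries were above all WT libraries, and the drug groups were separate in opposite directions, with a difference of -0.89 ± 0.19 (adjusted p = 0.077). It overlaps the nuclear receptor gene Nr1i3 on the opposite strand, which held 39278 reads against its 5620. Piga, the first enzyme of GPI anchor synthesis, was at 7.12 to 10.5 CPM in WT DMSO, 4.04 to 6.56 CPM in WT CDDO-Me, 6.56 to 9.06 CPM in KO untreated libraries and 9.37 to 12.3 CPM in KO CDDO-Me, separate in both genotypes in opposite directions. Its difference was -1.18 ± 0.26 (adjusted p = 0.092). The zinc finger gene Zfp445 differed by -1.07 ± 0.24 (adjusted p = 0.1), and the others of the 12, Kcnt2, Cadps2 and Map3k6, by -2.10 ± 0.45, -0.72 ± 0.16 and -2.21 ± 0.51 (adjusted p = 0.084, 0.1 and 0.12).

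**Figure D5:**
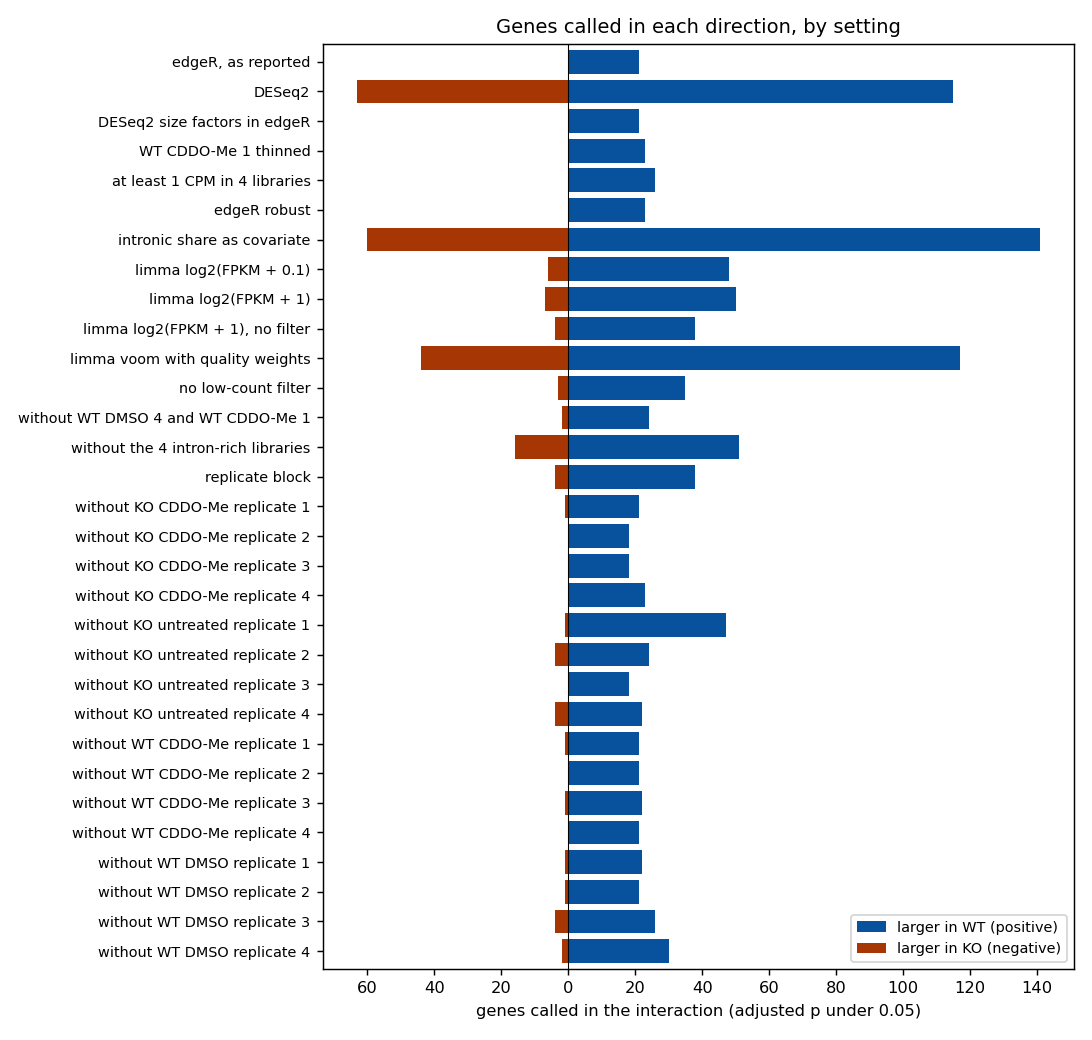
Number of genes called in the interaction under each way of processing the counts and in each fit without 1 library, with positive differences to the right in blue and negative ones to the left in orange. The positive count runs from 18 to 141 and the negative count from 0 to 63.

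Each of the 21 positive genes was called again by DESeq2, with DESeq2's size factors in edgeR, and with the intronic share as a covariate. Other settings lost some of them: limma kept 18 on log2(FPKM + 1) or log2(FPKM + 0.1), without Abcc4, D630045J12Rik and Mest, and 16 with no filter, without Gm24830 and Tbcel as well. Voom kept 19, without Gm3776 and Nqo1, and leaving out WT DMSO 4 and WT CDDO-Me 1 also kept 19, without Nqo1 and Mest. Negative calls numbered 0 in edgeR, 63 in DESeq2 and 60 in edgeR with that covariate. In a test on simulated counts with 50 genes altered at each size, the edgeR interaction recovered 80% of those with a 4-fold difference and 6% of those with a 2-fold difference. For negative differences of the same sizes it recovered 62% and 8%. It also called 3 unaltered genes. The altered genes had a mean of at least 1 CPM, and all groups shared a base level. No library-wide shifts were simulated, so the rates need not hold for the real libraries or for genes with few reads.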

How the data were processed

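Total RNA of snap-frozen liver was depleted of ribosomal RNA and sequenced as paired reads with a directional kit, per the labels' protocols. The authors deposited a matrix of gene counts, whole numbers that were not normalized, and FPKM values made from the same libraries. Per the submitters' processing notes, which give no role or order, the tools included TopHat2 2.1.0 and HTSeq 0.6.1p1, together with cutadapt 1.2.1, CASAVA 1.8.2 and DESeq2, and the genome build was GRCm38.p5. The strand setting of the counting is not given in the sources used here.

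Genes were filtered with filterByExpr by group, scaled by TMM and fitted with edgeR 4.0.16's quasi-likelihood test (R 4.3.3) over all 16 libraries with 4 group means, and p-values were adjusted by Benjamini-Hochberg over 16206 genes. Standard errors are the absolute log2 change divided by the square root of F, and intervals are 95%. CPM values use the TMM-scaled library. Alternatives were DESeq2 1.42.0, limma 3.58.1 on voom values or log2(FPKM + 1) and log2(FPKM + 0.1), other filters and scalings, an intronic-share covariate, a replicate block and left-out libraries. Chi-square comparisons of the 24 pairs of libraries within groups gave at least 16.7 per degree of freedom, so none was taken for a duplicate. The interaction was tested on simulated data.

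The genes named are the 7 panel genes (Nfe2l2, Nqo1, Gclc, Gclm, Txnrd1, Srxn1, Hmox1), up to 30 called genes per direction by p, up to 12 protein-coding genes with a negative difference by p, up to 4 per list by p, genes called in both genotypes, and a few per drug response. The 12 with a negative difference also needed a mean of at least 1 CPM in some group. Members and lists were chosen with earlier results of these data known. The depth per library, from 12002317 counts upward, limits genes with few reads.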

Additional observations from a re-analysis of the deposited data

Results flagged for a closer look

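The responses of the genotypes differed, by the interaction test, for 21 genes, with log2 differences of 7.0 for Cbr3, 2.78 for Akr1b8, 5.40 for Gsta1, 4.16 for Gstm3, 3.37 for Gsta2, 2.96 for Gstm1 and 2.07 for Gclc. Adora1 followed with 2.20, Cbr1 with 2.48, Gm10639 with 4.06, Cyp2a4 with 6.91, Blvrb with 1.76 and D630045J12Rik with 1.96. The rest were Marco with 2.86, Abcc4 with 2.14, Tbcel with 1.41, Gm3776 with 5.14, Srxn1 with 2.15, Gm24830 with 3.00, Nqo1 with 2.58 and Mest with 2.86.

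Single libraries lay far from the other 3 of their group, by Dixon's test, in 6 of 116 groups examined for 29 genes, and chance flags about 1 in 20. They were Cyp2a4 in KO CDDO-Me 4 at 0.344 CPM, Gsta2 in WT DMSO 3 at 16.3 CPM and Gstm3 in KO untreated 4 at 18.5 CPM. The others were Mest in KO untreated 4 at 7.88 CPM, Itih3 in WT CDDO-Me 3 at 1530 CPM and Pla2g7 in WT CDDO-Me 1 at 11.2 CPM.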

How the results depend on the processing

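The 21 positive calls numbered the same or nearly so (21 to 26 in all) under 5 alternatives. Larger interaction totals came from DESeq2 (178, of which 115 positive and 63 negative), the intronic share as covariate (201, 141 and 60), voom with quality weights (161, 117 and 44) and leaving out the 4 intron-rich libraries (67, 51 and 16). Totals were 57 (50 and 7) for log2(FPKM + 1), 54 (48 and 6) for log2(FPKM + 0.1), 42 (38 and 4) for log2(FPKM + 1) with no filter, and 38 (35 and 3) with no low-count filter. Without WT DMSO 4 and WT CDDO-Me 1 there were 2 negative calls. Leaving out 1 library at a time gave 18 to 48 in all, 18 to 47 positive and 0 to 4 negative.

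The WT response called 466 genes with DESeq2 and 5027 with voom, and 54 to 219 without 1 library. The KO response called 299 with DESeq2, 86 with the covariate, 67 with log2(FPKM + 1), 55 with log2(FPKM + 0.1), 1823 with voom, 51 with no filter, 88 without WT DMSO 4 and WT CDDO-Me 1, 4 without the intron-rich libraries, and 4 to 133 without 1 library. The cause of these shifts was not tested.

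The replicate block gave 42 interaction calls (38 positive and 4 negative), 226 in WT and 46 in KO. Of 24 same-numbered pairs of libraries 12 correlated above 0.1 (median 0.106, from -0.438 to 0.348), against a median of -0.013 for differently numbered pairs. Correlation was best with the own number for 6 of 16 libraries. Whether the shared numbers mark pairs or a batch was not tested.

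The promoter core was present in 10.5% of called genes in the 250 bases before the start alone, beside 13.9% of the tested genes matched. The form with a further A at its end was present in 5.26%, a single gene, beside 3.43% of the tested genes matched. Uncalled values changed sign for Nfe2l2 (-0.63 without the intron-rich libraries, and -0.14 to 0.35 over the fits without 1 library, the former without KO untreated 1) and for Hmox1 (-1.19 to 0.86 over those fits, the latter without WT DMSO 4). Hmox1 was 0.074 with log2(FPKM + 0.1), 0.11 with log2(FPKM + 1) with or without the filter, 1.10 with voom and 1.02 when both WT DMSO 4 and WT CDDO-Me 1 were left out. With log2(FPKM + 0.1) and log2(FPKM + 1) the KO median over all genes moved to -0.215 and -0.128.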
